A study of Homo sapiens with 4 samples.

Results

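The miRNAs hsa-miR-191-5p and hsa-miR-425-5p, written below as miR-191-5p and miR-425-5p, are the mature 5′ arms of 2 neighbouring hairpins, MIR191 and MIR425, which lie together in the gene DALRD3. They were chosen by name as the 2 members of this locus, out of 1474 miRNAs counted in at least 1 library, and their 3′ arms, miR-191-3p and miR-425-3p, were followed beside them. The study sequenced small RNA of 4 lines of human colorectal cancer cells, with a single library for each: parental HCT116, parental RKO, and HCT116-R and RKO-R, which had acquired radioresistance. To obtain these, flasks of the parental cells were given fractions of 4 Gy up to 40 Gy, and the survivors then grew for 3 weeks or longer with no further irradiation, while the parental cells were not irradiated. No line had a replicate, so every difference given here compares libraries and has no replicate check.

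A miRNA hairpin is cut out of a longer transcript by Drosha and then by Dicer, which leaves a short duplex of its 5′ arm and its 3′ arm. One strand, the guide strand, is usually kept in an Argonaute protein and pairs with target mRNAs through its seed, while the other strand, the passenger strand, is mostly degraded. Hairpins that are transcribed together can therefore differ in the amount of mature miRNA they give. MiR-191-5p is an abundant miRNA in many epithelial tumors and has been studied in the radiation response of prostate cancer cells, and both 5′ arms have been proposed as reference miRNAs for qRT-PCR.

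On GRCh38, MIR191 occupies 49020618 to 49020709 of chromosome 3 on the minus strand, and MIR425 occupies the same strand from 49020148 to 49020234, with 383 bases between them. In GENCODE release 29, both hairpins are in intron 1 of the 4 DALRD3 transcripts that span them and overlap no DALRD3 exon. MIR191 also lies opposite intron 1 of 1 transcript of NDUFAF3, which is encoded on the plus strand. No miRNA hairpin of the RefSeq table lay on the plus strand within 1000 bases, so an antisense miRNA of the kind that shares reads with its partner is not annotated at this locus. The mature sequences are shown because the libraries differed in the 3′ arms, and those of MIR191 can be set beside its 5′ arm. They are those of RefSeq (GRCh38.p14), written 5′ to 3′, with the seed (bases 2 to 8) in capitals. Of the 4 arms, 3 matched an entry of the RefSeq table, and miR-425-5p is given by name.
miR-191-5p: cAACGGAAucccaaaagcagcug
miR-191-3p: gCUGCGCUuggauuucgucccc
miR-425-3p: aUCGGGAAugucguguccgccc
MiR-191-5p has 23 bases and spans bases 16 to 38 of the 92 bases of its hairpin, at 49020672 to 49020694 on chromosome 3. MiR-191-3p, at 49020631 to 49020652, spans bases 58 to 79 of the same hairpin. MiR-425-3p, at 49020159 to 49020180, spans bases 55 to 76 of the 87 bases of MIR425. The 3 seeds differ from one another, and none of them was shared by another of the 2370 mature miRNAs in the table.

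The counts of the 4 libraries summed to between 6818497 and 7140460, and levels are given as counts per 1000000 counts of the library (CPM) with 95% Wilson confidence intervals, which cover counting error only. A count of 3, taken as the smallest that can be shown, stood for 0.420 to 0.440 CPM. Of 7 miRNAs that mark epithelium, 6 or 7 were listed in each library, and miR-215-5p had no count in 3 libraries. Their summed level was 45826 to 47095 CPM in HCT116 and HCT116-R and 2845 to 2866 CPM in RKO and RKO-R, mainly because of miR-200c-3p (42008 to 42717 CPM against 90.9 to 206 CPM). MiR-141-3p was also lower in RKO and RKO-R (972 to 1220 CPM against 2.38 to 5.93 CPM). The levels of miR-200a-3p (1665 to 2113 against 1586 to 1840 CPM), miR-192-5p (202 to 226 against 220 to 323 CPM) and miR-194-5p (65.1 to 112 against 75.2 to 119 CPM) overlapped. MiR-200b-3p stood at 664 to 956 against 616 to 626 CPM. The 4 markers of blood cells summed to 5.64 to 26.7 CPM and the 3 markers of mesenchyme to 7.14 to 336 CPM, with the highest sums in HCT116. The part of these differences in the results below was not tested.

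MiR-191-5p was among the most abundant miRNAs of every line. Its counts were 335657 (HCT116), 326561 (HCT116-R), 271538 (RKO) and 210370 (RKO-R), or 49193 CPM (49031 to 49356), 47893 CPM (47733 to 48054), 38028 CPM (37888 to 38169) and 30430.4 CPM (30303 to 30559). In the same order, miR-191-5p held 4.92%, 4.79%, 3.80% and 3.04% of the counts of the library and ranked 4, 5, 6 and 8 among the miRNAs. The level was thus highest in HCT116 and lowest in RKO-R, 1.62-fold apart.

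MiR-425-5p was much less abundant and ranked between 62 and 77. Its counts were 6848 (HCT116), 5959 (HCT116-R), 4982 (RKO) and 3875 (RKO-R), and its levels 1004 CPM (980 to 1028), 874 CPM (852 to 896), 698 CPM (679 to 717) and 561 CPM (543 to 578). The order of the lines was the same as for miR-191-5p, and the highest and lowest levels were 1.79-fold apart. The counting intervals of neighbouring lines in this order did not overlap for either miRNA. With the spread between libraries assumed from the methods of the study, a biological coefficient of variation (BCV) of 0.2, the 95% intervals of the difference between neighbours all included 0. For miR-191-5p, the difference on the log2 CPM scale was -0.04 (-0.84 to 0.76) from HCT116 to HCT116-R, -0.33 (-1.13 to 0.47) from HCT116-R to RKO and -0.32 (-1.12 to 0.48) from RKO to RKO-R. For miR-425-5p, the same differences were -0.20 (-1.001 to 0.60), -0.32 (-1.13 to 0.48) and -0.32 (-1.12 to 0.49). Between the ends of the order, HCT116 and RKO-R, the difference was -0.69 (-1.49 to 0.11) for miR-191-5p and -0.84 (-1.64 to -0.04) for miR-425-5p, which are the highest and lowest of 4 libraries.

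**Figure D1:**
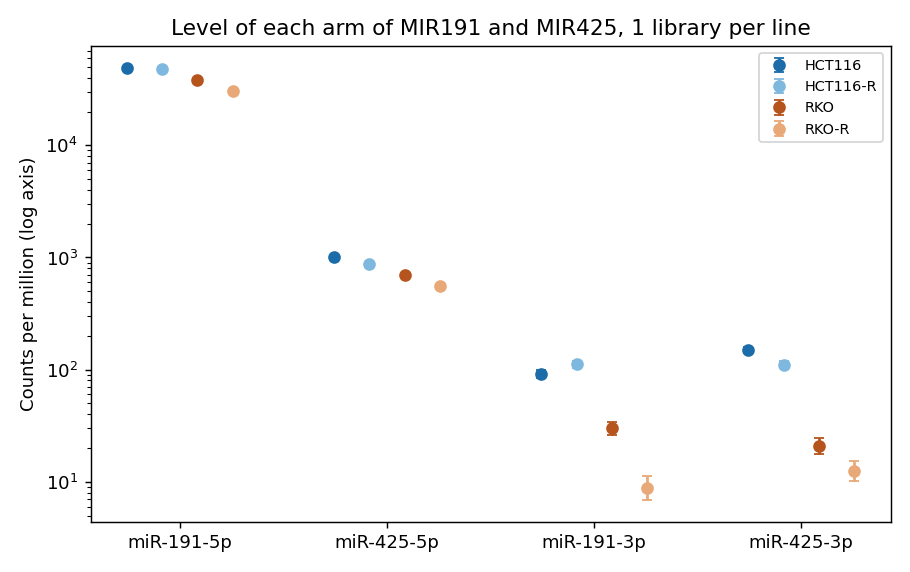
Level in CPM, on a log axis, of the 4 arms of MIR191 and MIR425 in the libraries of HCT116, HCT116-R, RKO and RKO-R. Points are single libraries and bars are 95% Wilson intervals of the counts. MiR-191-5p stays between 30430.4 and 49193 CPM and miR-425-5p between 561 and 1004 CPM, while both 3′ arms are lower in RKO and RKO-R than in HCT116 and HCT116-R.

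The first question of the design was whether miRNA levels differed between a radioresistant line and its parental line. MiR-191-5p and miR-425-5p were not differentially expressed in either pair in the edgeR exact test at the assumed BCV, in which 4.01% of 1322 miRNAs were called in the HCT116 pair and 5.54% of 1155 in the RKO pair. In HCT116-R, the log2 fold change was -0.06 (SE 0.41, 95% interval -0.86 to 0.74) for miR-191-5p and -0.22 (SE 0.41, -1.02 to 0.58) for miR-425-5p. In RKO-R, it was -0.08 (SE 0.41, -0.88 to 0.71) for miR-191-5p and -0.08 (SE 0.41, -0.88 to 0.72) for miR-425-5p. The adjusted p was 1 for both miRNAs in both pairs (edgeR exact test, Benjamini-Hochberg over all miRNAs tested). The data thus leave room for changes of up to these bounds, which the assumed BCV and not the counting error sets.

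Against the other miRNAs with a mean of at least 100 counts in the pair, the changes of the 5′ arms were small. In the HCT116 pair, 91.9% of 307 such miRNAs had a larger absolute log2 fold change than miR-191-5p, and 72.3% had a larger one than miR-425-5p. In the RKO pair, the shares were 85.0% and 87.0% of 253. Scaling by TMM moved every log2 fold change of the RKO pair by 0.24 compared with library totals. On library totals, both 5′ arms were at a log2 fold change of -0.32 in RKO-R, and neither was called.

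With both pairs fitted together by edgeR's quasi-likelihood test, which estimates the spread from the difference between the lines with 1 residual degree of freedom, 0.669% of 598 miRNAs were called. The log2 fold change over both lines was -0.10 for miR-191-5p and -0.18 for miR-425-5p (adjusted p = 0.998 for both in the edgeR quasi-likelihood test). The effect of radioresistance did not differ detectably between the lines for either miRNA. Its difference, RKO minus HCT116, was -0.06 (SE 0.58) for miR-191-5p and 0.11 (SE 0.58) for miR-425-5p on the log2 scale (adjusted p = 1.00 for both in the edgeR likelihood ratio test at the assumed BCV, with 4.75% of 1474 miRNAs called).

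The lines were then compared with each other, between the parental libraries and between the radioresistant libraries. These comparisons use the same 4 libraries as the pairs above. In RKO against HCT116, miR-191-5p had a log2 fold change of -0.50 (adjusted p = 0.485) and miR-425-5p one of -0.65 (adjusted p = 0.294), each with an SE of 0.41 in the edgeR exact test, in which 25.5% of 1289 miRNAs were called. In RKO-R against HCT116-R, it was -0.32 and -0.31 (SE 0.41 and adjusted p = 0.786 for both in the edgeR exact test), with 23.2% of 1333 miRNAs called. TMM moved every log2 fold change by -0.13 in the first of these comparisons and by 0.33 in the second, and on library totals the second gave -0.65 for miR-191-5p and -0.64 for miR-425-5p, neither of which was called. Both 5′ arms were therefore measured lower in the RKO lines in both comparisons, by less than the assumed spread allows to be called.

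The ratio of the 2 members does not depend on how the libraries are scaled. For each count of miR-425-5p there were 49.0 (HCT116), 54.8 (HCT116-R), 54.5 (RKO) and 54.3 (RKO-R) counts of miR-191-5p. As a share of the sum of both, miR-425-5p made up 1.999% (1.95 to 2.05) of the counts of HCT116, 1.79% (1.75 to 1.84) of HCT116-R, 1.80% (1.75 to 1.85) of RKO and 1.81% (1.75 to 1.87) of RKO-R. Parental HCT116 stood apart from the other 3 libraries by more than the counting error of the reads, and those 3 had overlapping intervals. This grouping held for the 5′ arms only. With both arms of each hairpin summed, the share of MIR425 was 2.29% (2.24 to 2.34) in HCT116 and 2.01% (1.96 to 2.06) in HCT116-R. It was 1.85% in RKO (1.80 to 1.90) and in RKO-R (1.79 to 1.91), so HCT116-R stood apart from both RKO lines too. The log2 ratio of the 5′ arms was 0.16 higher in HCT116-R than in HCT116 (counting interval 0.11 to 0.21). It differed by -0.01 between RKO and RKO-R (-0.07 to 0.06) and between HCT116-R and RKO-R (-0.07 to 0.05). At the assumed BCV, taken as independent for each miRNA, the interval for the HCT116 pair was -0.97 to 1.29 and included 0. Variation that both miRNAs share within a library cancels in the ratio, so this interval cannot decide whether the ratio changed.

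This ratio was set beside those of other miRNAs from neighbouring hairpins. Of 18 such pairs of guide strands, 14 had at least 100 counts of both miRNAs in every library. The range of the log2 ratio over the 4 libraries was 0.16 for miR-191-5p over miR-425-5p, the smallest of the 14, and the median range was 0.99. The next were miR-532-5p over miR-660-5p, from the miRNA cluster in CLCN5, with a range of 0.34, and miR-200a-3p over miR-200b-3p, which are epithelial miRNAs, with 0.43. MiR-25-3p and miR-93-5p, which share an intron of MCM7, had a range of 1.13, and miR-222-3p over miR-221-3p had 1.28. The widest were miR-182-5p over miR-183-5p (2.03) and miR-183-5p over miR-96-5p (2.48), although these 3 miRNAs come from 1 cluster. Some of the 14 pairs share a miRNA, so they are not 14 separate loci. The list was drawn up with earlier results of these data known. These ranges describe 4 libraries and were not tested.

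**Figure D2:**
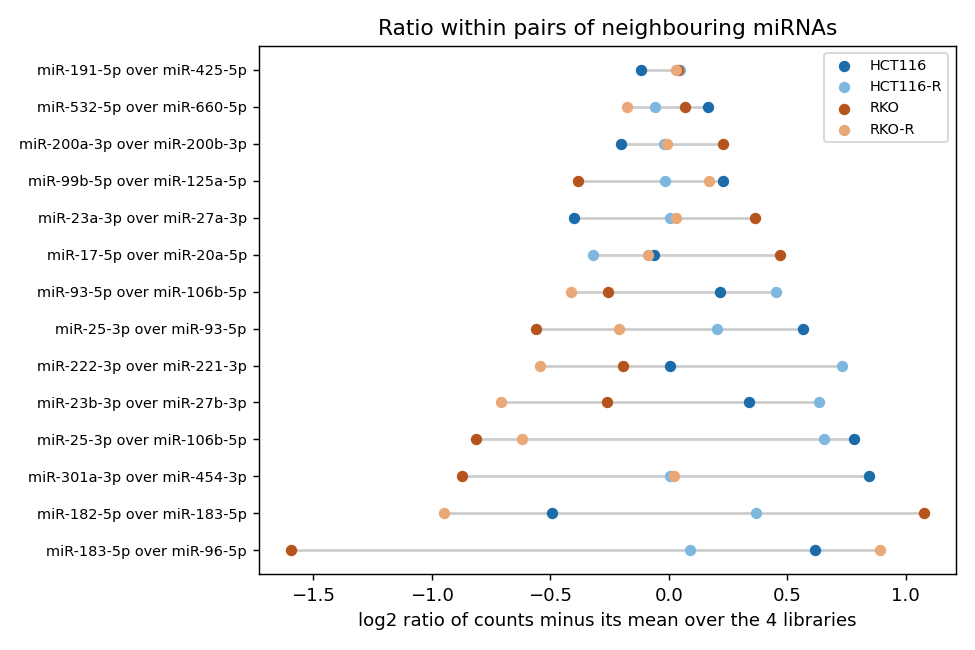
Log2 ratio of the counts of 2 neighbouring miRNAs minus its mean over the 4 libraries, for the 14 pairs with at least 100 counts of both in every library. Each point is a library and each grey line is the range. The pair of miR-191-5p and miR-425-5p has the shortest line (0.16), with HCT116 to the left of the other 3 libraries.

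The 3′ arms behaved differently from the 5′ arms. MiR-191-3p, the passenger strand of MIR191, was counted 620 (HCT116), 762 (HCT116-R), 215 (RKO) and 61 (RKO-R) times. Its levels were 90.9 CPM (84.0 to 98.3), 112 CPM (104 to 120), 30.1 CPM (26.3 to 34.4) and 8.82 CPM (6.87 to 11.3). MiR-425-3p had 1017, 757, 148 and 86 counts in the same order, which were 149 CPM (140 to 158), 111 CPM (103 to 119), 20.7 CPM (17.6 to 24.3) and 12.4 CPM (10.1 to 15.4). Both 3′ arms were high in HCT116 and HCT116-R and low in RKO and RKO-R, and no counting interval of an HCT116 library overlapped one of an RKO library.

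Between the lines, both 3′ arms were called as lower in RKO. In RKO against HCT116, where 17.1% of all miRNAs tested were called as lower, miR-191-3p had a log2 fold change of -1.72 with an SE of 0.42 (adjusted p = 0.000572, edgeR exact test) and miR-425-3p one of -2.97 with an SE of 0.43 (adjusted p = 1.25e-09, same test). In RKO-R against HCT116-R, where 16% were called as lower, the values were -3.33 with an SE of 0.45 (adjusted p = 7.78e-11) and -2.82 with an SE of 0.44 (adjusted p = 2.04e-08), again from edgeR. On CPM, miR-425-3p was 7.19-fold lower in RKO than in HCT116 and 8.92-fold lower in RKO-R than in HCT116-R, and miR-191-3p was 3.02-fold and 12.7-fold lower. Of 288 miRNAs with a mean of at least 100 counts in RKO and HCT116, 29.5% had a larger absolute log2 fold change than miR-191-3p and 15.6% than miR-425-3p. In RKO-R against HCT116-R, the shares were 13.7% and 16.5% of 278. MiR-191-3p was also lower in RKO-R than in RKO, at -1.53 on the log2 scale (SE 0.46, edgeR exact test with adjusted p = 0.0294, and 3.03% of miRNAs called as lower), a call that was lost at a BCV of 0.4 (adjusted p = 1, range over the alternatives 3.71e-06 to 1). The call of miR-191-3p in RKO against HCT116 was lost at that BCV too (adjusted p = 0.235, range 4.04e-12 to 0.235), and the other calls between the lines were kept. In HCT116-R, its log2 fold change was 0.28 with an SE of 0.42 (adjusted p = 1, edgeR exact test). The difference between these effects, RKO minus HCT116, was -1.84 (SE 0.62) and did not pass the threshold (adjusted p = 0.0575 in the edgeR likelihood ratio test). MiR-425-3p was not called in either pair, at -0.45 (SE 0.41) in HCT116-R and -0.50 (SE 0.45) in RKO-R (adjusted p = 0.927 and 0.871 in the edgeR exact test).

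**Figure D3:**
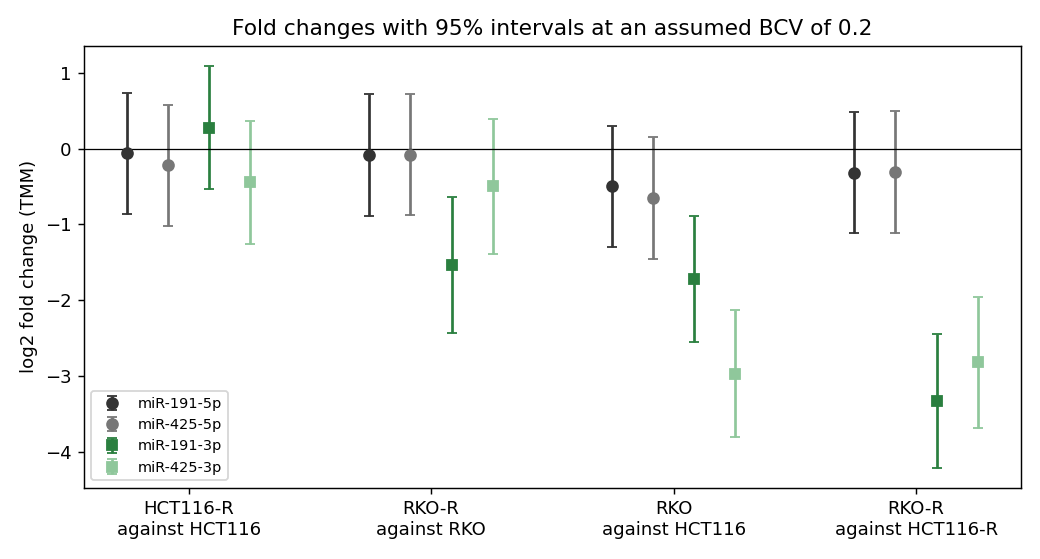
Log2 fold change (TMM) of the 4 arms in the 4 comparisons of libraries, with bars for 95% intervals at an assumed BCV of 0.2. The bars of miR-191-5p and miR-425-5p (circles) include 0 in every comparison, and those of miR-191-3p and miR-425-3p (squares) lie below 0 in both comparisons of RKO lines with HCT116 lines.

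Set against its own 5′ arm, miR-425-3p made up 12.9% (12.2 to 13.7) of the counts of MIR425 in HCT116 and 11.3% (10.5 to 12.1) in HCT116-R. In RKO and RKO-R its share was 2.88% (2.46 to 3.38) and 2.17% (1.76 to 2.67). MiR-191-3p made up a far smaller part of MIR191, with shares of 0.184% (0.170 to 0.199) for HCT116, 0.233% (0.217 to 0.250) for HCT116-R, 0.0791% (0.0692 to 0.0904) for RKO and 0.0290% (0.0226 to 0.0372) for RKO-R. The 5′ arm was the major arm of both hairpins in all 4 libraries. The intervals of the HCT116 lines and of the RKO lines were apart at both hairpins.

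The ratio of 5′ to 3′ arm is free of the scaling. At MIR425 it was 4.999-fold higher in RKO than in HCT116, a change of 2.32 on the log2 scale with a 95% interval of 1.16 to 3.48 at the assumed BCV, and 5.72-fold higher in RKO-R than in HCT116-R (2.52, 1.34 to 3.69). At MIR191 it was 2.33-fold higher in RKO (1.22, 0.07 to 2.38) and 8.05-fold higher in RKO-R (3.01, 1.82 to 4.2005). Within the HCT116 pair, the ratio changed by -0.34 (-1.48 to 0.80) at MIR191 and by 0.23 (-0.91 to 1.37) at MIR425. Within the RKO pair, it changed by 1.45 (0.25 to 2.65) at MIR191 and by 0.42 (-0.78 to 1.62) at MIR425. The intervals of both comparisons between the lines excluded 0 at both hairpins. All these intervals take the assumed BCV as independent for each arm, with no part shared within a library. Of the 4 changes within a pair, the interval of MIR191 in RKO-R excluded 0, and whether that change differed from the other 3 was not tested.

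**Figure D4:**
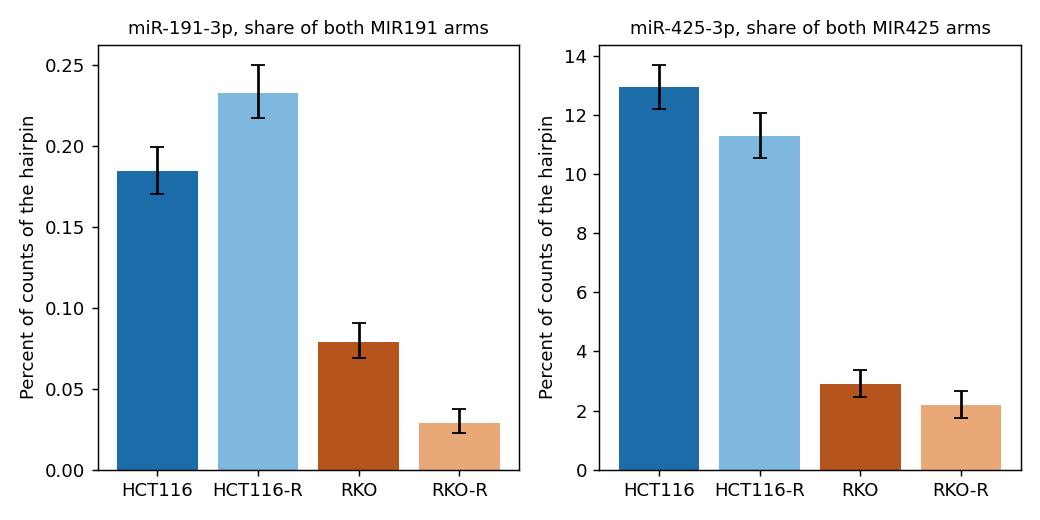
Share of the 3′ arm in the counts of its hairpin, in percent, for MIR191 (left) and MIR425 (right) in each library, with 95% Wilson intervals of the counts. The share of miR-425-3p is 12.9% and 11.3% in the HCT116 lines against 2.88% and 2.17% in the RKO lines, and the share of miR-191-3p is also lower in both RKO lines.

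Over 135 hairpins with both arms listed and at least 40 counts of the minor arm over the 4 libraries, minor arms had no common direction between the lines. Relative to the major arm, the minor arm changed by a median of 0.08 on the log2 scale in RKO against HCT116 and of -0.25 in RKO-R against HCT116-R. It was lower in 46.7% and 56.3% of the hairpins. In RKO against HCT116, 4 hairpins had a lower value than MIR425 and 23 had a lower value than MIR191. In RKO-R against HCT116-R, 10 were lower than MIR425 and 4 were lower than MIR191. Within the RKO pair, the median change was -0.30, the minor arm was lower in 57.8% of the hairpins, and 23 had a lower value than MIR191 (-1.44). In the HCT116 pair, the median was -0.04, with 51.9% of the hairpins lower. A minor arm at least 4-fold lower in both comparisons was found at 2 of the 135 hairpins, MIR425 and the hairpin of miR-449b, and a minor arm at least 4-fold higher in both at 6. This background was chosen after the values of the 3′ arms had been seen.

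The ratio of the 2 hairpins to each other was also taken over their 3′ arms. For each count of miR-425-3p there were 0.610 (HCT116), 1.01 (HCT116-R), 1.45 (RKO) and 0.709 (RKO-R) counts of miR-191-3p. The log2 ratio was 1.25 higher in RKO than in HCT116 (counting interval 0.92 to 1.59, 0.07 to 2.43 at the assumed BCV) and differed by -1.03 from RKO to RKO-R (counting interval -1.60 to -0.47, -2.30 to 0.23 at the assumed BCV). The counting intervals of both differences exclude 0, but the interval at the assumed BCV does so only between HCT116 and RKO. That BCV was again taken as independent for each miRNA.

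Because both 5′ arms have been proposed as reference miRNAs, they were compared with 11 other miRNAs that have been used or proposed as such. Over the 4 libraries, the log2 CPM of miR-191-5p had a range of 0.69 and that of miR-425-5p a range of 0.84, which put them at places 4 and 6 of the 13 in order of range. Let-7a-5p (0.45), miR-423-3p (0.48) and miR-26a-5p (0.64) varied less than miR-191-5p on library totals. The order against let-7a-5p and miR-26a-5p depends on the scaling. After TMM, the largest log2 fold change of miR-191-5p in the comparisons of libraries was -0.50 (RKO against HCT116). It was 0.68 for let-7a-5p (RKO-R against RKO), -0.77 for miR-26a-5p and -0.29 for miR-423-3p (both RKO against HCT116). MiR-16-5p and miR-24-3p had ranges of 1.35 and 1.50, and let-7i-5p, which stood at 21259 and 32923 CPM in the HCT116 lines against 157379 and 175274 CPM in the RKO lines, had a range of 3.04. MiR-103a-3p and miR-423-5p had the widest ranges, 6.44 and 11.0. Both overlap a miRNA of the opposite strand over 23 bases in the RefSeq table (miR-103b and miR-3184-3p). Without a stated use of strand, their counts are uncertain taken singly. In HCT116, HCT116-R, RKO and RKO-R, miR-423-5p stood at 3041, 13.9, 1574 and 1.45 CPM, and miR-3184-3p had 38, 13716, 50 and 13335 counts. In the same order, miR-103a-3p stood at 40.3, 13.2, 140 and 1147 CPM, and miR-103b had 4701, 3552, 6939 and 695 counts. Whether reads of 1 partner were counted as the other was not tested. MiR-423-3p and miR-24-3p also overlap a miRNA of the opposite strand. In the edgeR exact test, 2 of the 13 were called in each pair of a radioresistant and a parental line, both times miR-103a-3p and miR-423-5p, beside shares of all miRNAs of 4.01% (HCT116-R) and 5.54% (RKO-R). In RKO against HCT116, 4 of the 13 were called beside 25.5% of all miRNAs, and in RKO-R against HCT116-R, 5 were called beside 23.2%. The members were not among them. The median log2 fold changes of the list were -0.46, -0.08, -0.21 and 0.67 in these comparisons, beside 0.07, 0.02, -0.18 and -0.59 over all miRNAs tested. The latter include miRNAs with few counts. Over miRNAs with a mean of at least 100 counts in the pair, the medians were -0.18, 0.04, -0.21 and 0.19. For 203 miRNAs with at least 100 counts in every library, the median range was 1.06, and 27.6% of them had a smaller range than miR-191-5p and 35.5% a smaller one than miR-425-5p.

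**Figure D5:**
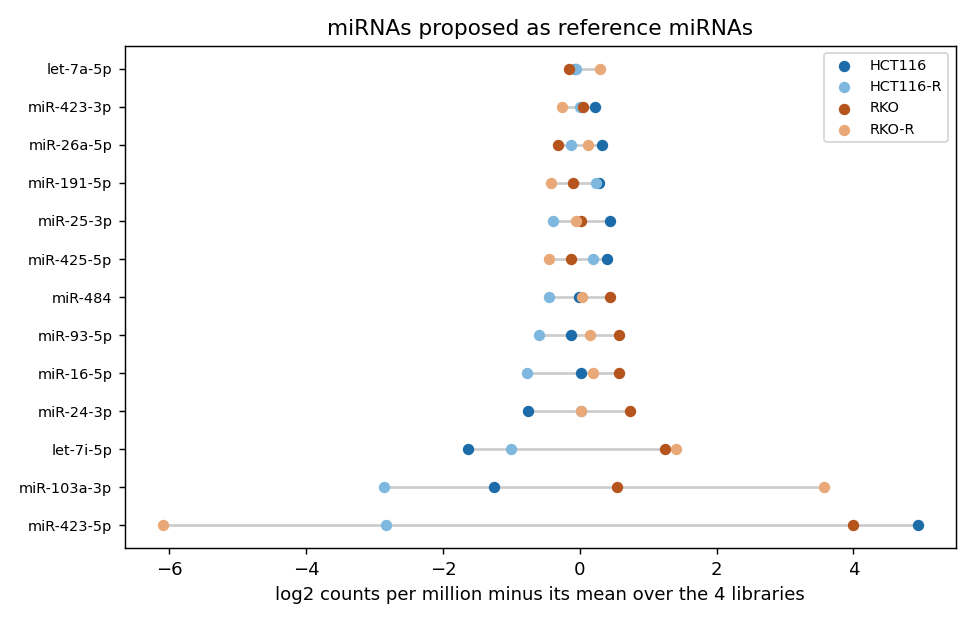
Log2 CPM minus its mean over the 4 libraries for 13 miRNAs proposed as reference miRNAs, ordered by range. Each point is a library and each grey line is the range. MiR-191-5p (0.69) and miR-425-5p (0.84) are at places 4 and 6 from the top, and miR-423-5p (11.0) has the widest range.

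Finally, the miRNAs whose levels followed the members most closely were taken as those with the smallest Euclidean distance between log2 CPM values centred over the 4 libraries, among 202 other miRNAs with at least 100 counts in every library. For both members the first was miR-193b-3p, at a distance of 0.13 from miR-191-5p and 0.04 from miR-425-5p, and the second was the other member, at 0.13. MiR-193b-3p stood at 916 (HCT116), 821 (HCT116-R), 631 (RKO) and 509 CPM (RKO-R), the same order of the lines as both members. MiR-651-5p and miR-23a-3p came next for both members, at 0.14 and 0.25 from miR-191-5p and at 0.14 and 0.17 from miR-425-5p. The fifth was miR-125a-5p for miR-191-5p (0.27) and miR-345-5p for miR-425-5p (0.18). The distances rest on 4 libraries and depend on their scaling to the same total.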

How the data were processed

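Small RNA of 18 to 30 nt was sequenced from 4 cell lines, 1 library each, on the BGISEQ-500 platform with unique molecular identifiers in the 3′ adapters. For each mature miRNA found at least once, the authors deposited the raw read count. The submitters' processing notes name Bowtie2 and hg38. Which miRNA annotation was used, whether strand was considered and whether identifiers were collapsed are not given in the sources used here. Reads without collapsed identifiers are not independent molecules. The Wilson and counting intervals, which cover counting error only, would then be too narrow.

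Groups were taken from the sample titles. Counts were joined by miRNA name, with 0 for a missing miRNA, and divided by the library total to give CPM. Pairs of libraries were compared with the exact test of edgeR 4.0.16 (R 4.3.3), TMM within the pair and a BCV of 0.2, which the methods name. A miRNA was tested if either library held 1 count or more, and was called at a Benjamini-Hochberg adjusted p under 0.05. All 4 libraries were also fitted with edgeR's quasi-likelihood test (cell line and radioresistance) and with a likelihood ratio test of their interaction at the same BCV. Standard errors and 95% intervals of fold changes, and intervals given at the assumed BCV, combine the counting error with that BCV. For ratios of 2 miRNAs, the BCV was taken as independent for each miRNA in each library. Wilson intervals and counting intervals rest on the counts alone. The fits were run on counts simulated with the assumed BCV, which cannot show whether that BCV holds for these libraries. The members, the lists and the rule for named miRNAs were chosen with earlier results of these data known. The rule named the 2 members, their 3′ arms, miRNAs with the same seed, the 5 nearest profiles per member and both lists. Alternatives were a BCV of 0.1 or 0.4, library totals, the size factors of DESeq2 1.42.0, the DESeq2 Wald test and filters on low counts. RefSeq sequences are on GRCh38.p14, which has the chromosome coordinates of hg38. Computations used Python 3.11.15, pandas 2.3.3 and scipy 1.17.1.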

Additional observations from a re-analysis of the deposited data

How the results depend on the processing

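Of 80 fold changes of the 4 arms recomputed under alternatives in the comparisons of 2 libraries, 76 kept their direction and their side of the threshold. A BCV of 0.1 or 0.4 leaves the log2 fold change as it is, so these settings could not alter its direction. All changes of side came from them. At a BCV of 0.1, the 5′ arms were called as lower in RKO against HCT116, at -0.50 (adjusted p = 0.0470, range over the alternatives 0.0470 to 0.892) for miR-191-5p and -0.65 (adjusted p = 0.00607, range 0.00607 to 0.864) for miR-425-5p. At that setting, 420 of the 1289 miRNAs tested were called in this comparison, in either direction. At a BCV of 0.4, miR-191-3p was no longer called in RKO-R against RKO or in RKO against HCT116 (adjusted p = 0.235), while the calls of miR-425-3p between the lines and of miR-191-3p in RKO-R against HCT116-R were kept. The interaction of miR-191-3p was called at a BCV of 0.1, with library totals (-2.07, adjusted p = 0.0224) and with at least 10 counts (-1.78, adjusted p = 0.0378), and its adjusted p ranged from 1.20e-05 to 0.793. Of 1474 miRNAs tested, 178 had a called interaction at a BCV of 0.1 and 81 with library totals, and 86 miRNAs had one with at least 10 counts. The interaction of the other arms, which was never called, changed sign to -0.12 for miR-425-5p with library totals, to 0.18 for miR-191-5p and 0.15 for miR-425-3p with DESeq2 size factors, and to 0.0078 for miR-191-5p with at least 10 counts.

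Over all miRNAs, the calls at a BCV of 0.1 were 154 in the HCT116 pair, 148 in the RKO pair and 178 for the interaction, against 53, 64 and 70 at 0.2. At a BCV of 0.4 they were 24, 9 and 14, and 152 in RKO against HCT116 (329 at 0.2) and 140 in RKO-R against HCT116-R (309 at 0.2). Over both lines, 4 miRNAs were called, 2 with library totals and 11 without a filter on low counts. With both arms of each hairpin summed, the share of MIR425 was 2.29% in HCT116, 2.01% in HCT116-R and 1.85% in RKO, each above the counting interval for the 5′ arms. The labels give no replicate numbers, and the fit over both lines takes each radioresistant line with its own parental line through the term for cell line. The assumed spread between libraries, more than the depth, sets the intervals of all 4 arms, and for the 5′ to 3′ ratio of MIR191 in the RKO pair the SE was 0.21 from counting and 0.61 with the assumed BCV.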
